A study of Mus musculus with 3 samples.

Results

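The genes described here encode the transforming growth factor beta (TGF-beta), bone morphogenetic protein (BMP), growth and differentiation factor (GDF) and activin ligands, their receptors, the Smad proteins that relay the signal, and a set of binding proteins, antagonists and target genes. They were chosen by name, as symbols of the families Tgfb, Tgfbr, Bmp, Bmpr, Acvr, Inh, Smad, Gdf and Ltbp together with Id1, Id2, Id3, Id4, Nog, Fst, Chrd, Grem1, Bambi and Eng. The rule found 63 genes among the 21881 gene symbols of the deposited tables. No measured value entered the choice, but it was made with earlier results of these data known. The name rule also takes in Bmp1, which is a procollagen C-proteinase and not a BMP ligand, and it is kept apart below.

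The material was 3 snap-frozen mammary tumours of the transplantable line NDL(UCD), each grown in a different female mouse of the host strain FVB/NJ (strain FVB/N in the sample labels). The cultured cells were injected into uncleared mammary fat pads of mice aged 6 to 8 weeks, and tumours measured 5 to 10 mm across when harvested. NDL denotes a mouse model with an activated Neu (ErbB2) transgene driven by the mouse mammary tumour virus promoter. All 3 tumours came from 1 line and make up 1 group with no control, so that the data give levels within tumours and differences between tumours, and no response to a treatment. The pads held the host's own ducts, fat and stroma, and RNA of those cells is part of each bulk value; fewer cells of a type and less RNA per cell cannot be told apart.

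TGF-beta family ligands are secreted dimers that bring together type II and type I receptor kinases; the activated type I receptor phosphorylates receptor-regulated Smads, which join Smad4 and enter the nucleus. TGF-beta and activin receptors act mainly on Smad2 and Smad3, whereas BMP receptors act mainly on Smad1, Smad5 and Smad9, with Id genes among the best known targets. In the mammary gland TGF-beta is known to restrain duct growth and epithelial proliferation, and in ErbB2-driven mouse tumours it is known to slow tumour onset while promoting spread.

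Levels are in FPKM, fragments per kilobase of transcript per 1000000 mapped fragments, a unit per length, so that genes of different length can be compared. The unit does not correct for base composition. The interval widths imply 11.7, 12.4 and 13.4 M fragments (M, 1000000) in tumours 1, 2 and 3, and at the median locus 1 FPKM stood for 69.2, 66.4 and 73.8 fragments. A gene listed at 0 could still have had 3 fragments, or 0.0433, 0.0452 and 0.0406 FPKM at the median locus; such limits cover counting error only. The labelled tissue was borne out by 7 of 8 luminal epithelial markers above 1 FPKM, with summed levels of 809, 1194 and 1145 FPKM in tumours 1, 2 and 3. The other, Krt19, was at 0.261, 0.0302 and 4.01 FPKM and not separated from 1 FPKM. All 8 fibroblast markers were above 1 FPKM too (178, 301 and 267 FPKM summed), as were all 8 macrophage markers (246, 443 and 909 FPKM) and 5 of 8 endothelial markers (15.995, 23.9 and 22.0 FPKM; Vwf was below). Adipocyte markers summed to 67.4, 48.2 and 209 FPKM with 3 of 7 above. T cell, B cell and neutrophil markers summed to at most 9.13, 0.714 and 29.7 FPKM. Among these, S100a8, S100a9 and, as deposited only, Cd3g were above 1 FPKM, and Pax5 and Elane were listed at 0. Basal and myoepithelial markers summed to 24.0, 54.9 and 42.9 FPKM (2 of 7 above). Skeletal muscle markers summed to 39.5, 50.1 and 59.3 FPKM (2 of 7 above). Nerve and Schwann cell markers summed to 48.0, 60.9 and 57.7 FPKM (3 of 5 above). The tumours also differed in base composition, with tumours 1 and 3 at opposite ends and tumour 2 between them. A trend over all genes was fitted to each tumour's log2 difference from the mean of the 3 tumours. Between GC-poor and GC-rich transcripts it ran from 0.54 to -0.45 in tumour 1 and from -0.06 to 0.11 in tumour 2. In tumour 3 it ran from -0.47 to 0.33. Removing this trend takes out differences between tumours only. A GC effect shared by the 3 libraries would stay in every comparison between genes. For the chosen pathway genes, calls that changed when this trend was removed are given both ways. The same holds for gene orders described as beyond or within their spread. Values in single tumours are as deposited unless stated, and the order of the tumours can change with the removal.

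In these tumours most receptor and Smad genes lay above 1 FPKM and most ligand genes below it, with Tgfb3, Inhbb and Tgfb2 as the exceptions among ligands. Each gene's level was tested against 1 FPKM, a conventional level, with limma on log2 values. Of the 63 genes, 60 were listed above 0 in at least 1 tumour and could be tested; Gdf2, Inhbc and Inhbe were listed at 0 in all 3. Above 1 FPKM were 27 of the 60, or 45%, against 54.2% of all 18028 symbols tested, and 26 were below, against 32.5%. The remaining 7 were not separated from 1 FPKM by the test: Tgfb1, Bmp7, Inhba, Acvr2b, Eng, Smad6 and Fst. Split by role, 3 of 25 ligand genes listed above 0 were above 1 FPKM and 19 were below, whereas 10 of 14 receptors and co-receptors and 6 of 8 Smads were above. The median log2 level against 1 FPKM was -2.56 for the ligands, 1.73 for the receptors and co-receptors and 2.63 for the Smads, beside 1.09 for all symbols tested. When each library was rescaled to a total of 1000000 FPKM, which lifted the median symbol by 1.46 on the log2 scale, 34 of the 60 genes were above and 22 below (60.7% of calls above, against 50.9%; all symbols, 73.4% against 62.5%), the 7 genes just named were then all above, and the ligands split 6 above to 16 below.

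**Figure D1:**
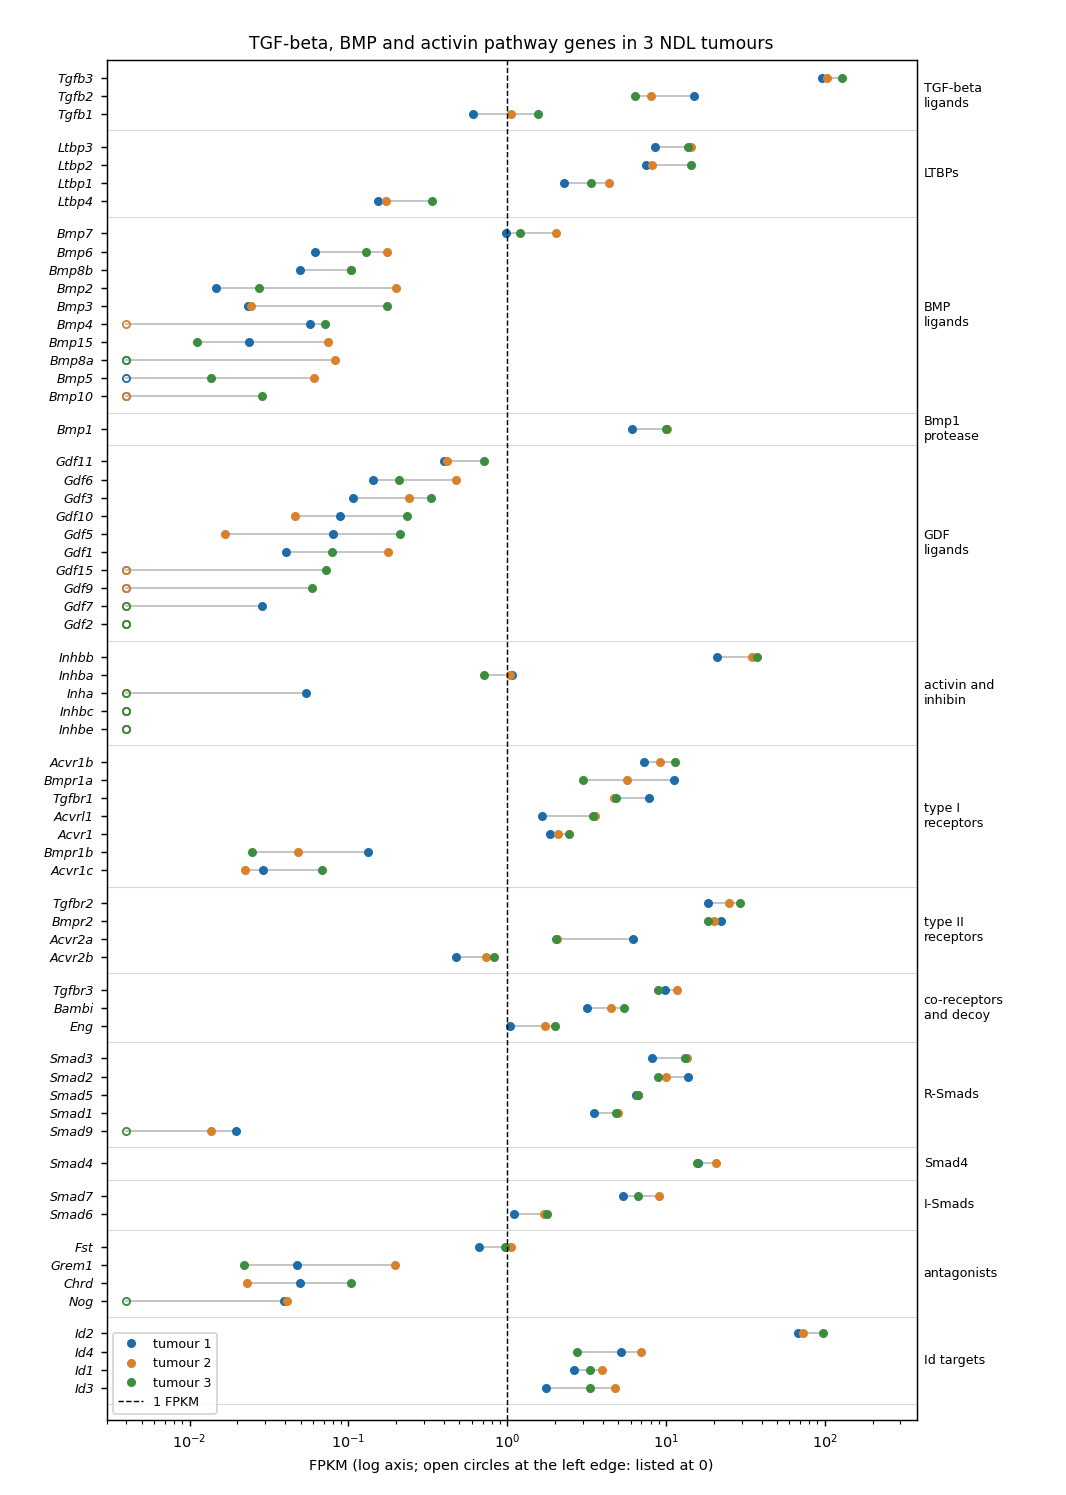
Level of each pathway gene in FPKM (log axis) in tumours 1, 2 and 3, grouped by role, with 1 point per tumour and open circles at the left edge for values listed at 0. Tgfb3, Id2 and Inhbb lie furthest to the right among the ligands and targets, with Tgfb2 close to Inhbb in tumour 1. The BMP and GDF ligands other than Bmp7 lie to the left of 1 FPKM.

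Promoter sequence was available for 45 of the 63 genes, and the 3 pairs below are printed because the close relatives within each had different levels or, for the last, ran in opposite directions between tumours: the activin subunit genes Inhbb and Inhba, the BMP type I receptor genes Bmpr1a and Bmpr1b, and the ligand genes Tgfb2 and Tgfb1. Each run is the 250 bases before the RefSeq start on build GRCm38.p6, 5′ to 3′ on the gene's own strand, with every CG dinucleotide in capitals. The positions are chr1:119422249-119422498 (minus strand) for Inhbb, chr13:16011601-16011850 (plus strand) for Inhba, chr14:34502547-34502796 (minus strand) for Bmpr1a, chr3:141982265-141982514 (minus strand, the most upstream of its 3 listed starts) for Bmpr1b, chr1:186705990-186706239 (minus strand) for Tgfb2 and chr7:25686752-25687001 (plus strand) for Tgfb1.
Inhbb: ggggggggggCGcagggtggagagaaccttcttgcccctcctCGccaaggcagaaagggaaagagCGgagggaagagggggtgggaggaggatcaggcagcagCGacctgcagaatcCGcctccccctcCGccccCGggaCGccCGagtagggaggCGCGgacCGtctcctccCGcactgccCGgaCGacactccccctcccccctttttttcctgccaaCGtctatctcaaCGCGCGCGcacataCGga
Inhba: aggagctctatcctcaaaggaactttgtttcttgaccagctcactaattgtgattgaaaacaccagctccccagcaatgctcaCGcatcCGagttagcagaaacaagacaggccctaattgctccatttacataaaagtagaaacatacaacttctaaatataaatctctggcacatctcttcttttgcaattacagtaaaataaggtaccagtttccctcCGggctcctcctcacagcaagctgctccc
Bmpr1a: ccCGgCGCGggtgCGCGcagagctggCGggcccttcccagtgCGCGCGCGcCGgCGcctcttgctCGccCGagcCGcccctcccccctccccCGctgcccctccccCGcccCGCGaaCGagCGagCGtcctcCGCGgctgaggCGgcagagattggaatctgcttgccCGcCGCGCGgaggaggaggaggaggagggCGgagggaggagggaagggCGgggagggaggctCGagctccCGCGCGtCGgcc
Bmpr1b: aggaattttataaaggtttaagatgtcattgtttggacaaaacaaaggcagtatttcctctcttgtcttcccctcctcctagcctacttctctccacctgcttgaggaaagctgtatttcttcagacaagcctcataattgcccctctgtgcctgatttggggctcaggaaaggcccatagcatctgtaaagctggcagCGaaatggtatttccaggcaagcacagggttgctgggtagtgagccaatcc
Tgfb2: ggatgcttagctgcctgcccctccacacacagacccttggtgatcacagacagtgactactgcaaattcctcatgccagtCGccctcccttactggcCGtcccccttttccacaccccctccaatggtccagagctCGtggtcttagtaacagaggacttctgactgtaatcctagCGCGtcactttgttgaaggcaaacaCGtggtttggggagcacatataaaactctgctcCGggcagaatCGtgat
Tgfb1: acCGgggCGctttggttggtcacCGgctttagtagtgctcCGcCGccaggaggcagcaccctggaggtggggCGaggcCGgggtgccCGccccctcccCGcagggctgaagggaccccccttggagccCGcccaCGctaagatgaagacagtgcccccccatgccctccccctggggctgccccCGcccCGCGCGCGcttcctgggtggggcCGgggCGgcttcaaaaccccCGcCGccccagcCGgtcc
The promoter of Inhbb held 21 CG dinucleotides and that of Inhba 3; Bmpr1a had 36 and Bmpr1b 1. In both pairs the gene with the higher level had the promoter richer in CG, but in the TGF-beta pair it was the reverse, with 8 in Tgfb2 and 21 in Tgfb1. The letters TATAAA, searched on both strands, began 91 bases upstream of the start in Inhba, 31 bases upstream in Tgfb2 and 242 bases upstream in Bmpr1b, where an overlapping match lay on the other strand. CAGACA, the letters of a Smad-binding element, began 204 bases upstream in Tgfb2 and 128 bases upstream in Bmpr1b. Neither motif was in these windows of Inhbb, Bmpr1a or Tgfb1. Of the 45 promoters 6 held TATAAA and 5 held CAGACA, shares of 13.3% and 11.1%, against 13.0% and 17.1% of all 27025 promoters of the same length. Among the 12323 promoters of symbols in the level test the shares were 8.89% and 14.2%. A match is only a run of letters and not a site.

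Across the 45 promoters, the genes above 1 FPKM had a median of 22 CG dinucleotides in these 250 bases (n = 18) and those below a median of 15 (n = 19). The same medians over all symbols were 17 above 1 FPKM and 5 below, so that both medians were higher for the pathway genes, by more below that level than above it. At least 15 CG were present in 52.6% of the pathway genes below 1 FPKM and in 21.7% of all symbols below it. Gdf10, with 35, Gdf11, with 33, and Acvr1c, with 32, were below 1 FPKM, and Id4, with 35, was above. Conversely Ltbp3 was above 1 FPKM with 2. These counts describe the genes with a listed promoter and were not tested.

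**Figure D2:**
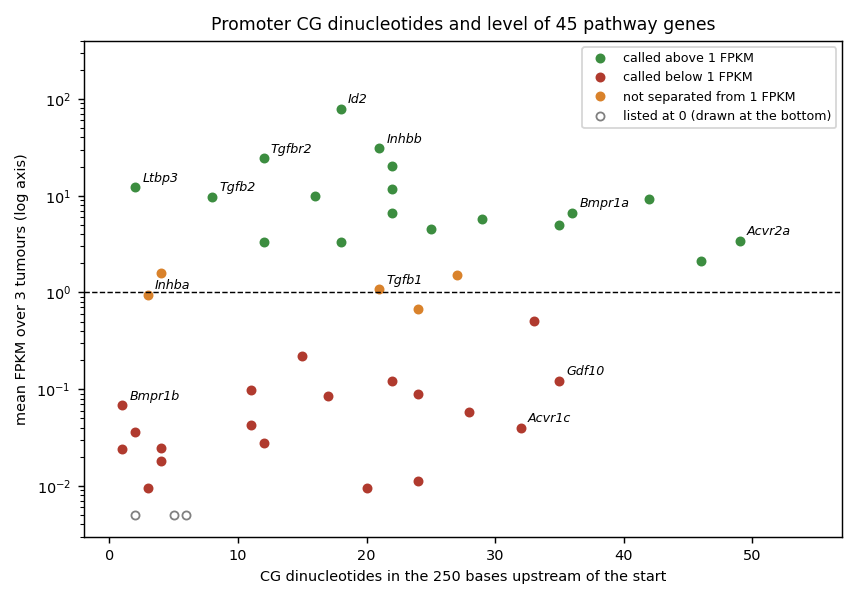
Mean level over 3 tumours in FPKM (log axis) against the number of CG dinucleotides in the 250 bases upstream of the start, 1 point for each of 45 pathway genes. Genes below 1 FPKM range from 1 to 35 CG, and the genes above it lie between 2 and 49.

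Among the TGF-beta ligand genes, Tgfb3 (chr12:87397693-87419991 on mm9) was by far the highest. Its level was 96.1, 103 and 129 FPKM in tumours 1, 2 and 3, a mean of 109.6 ± 17.4 (SD, n = 3), above that of 98.3% of all symbols and resting on 9006, 9320 and 12980 fragments (limma, adjusted p = 1.1e-07 against 1 FPKM). The tumours lay within 1.35 times of one another. With GC and length trends removed, Tgfb3 was at 127, 94.7 and 107 FPKM, highest in tumour 1. Tgfb2 (chr1:188447065-188529871) was at 14.9, 8.10 and 6.42 FPKM, a mean of 9.81 ± 4.5 (limma, adjusted p = 8.0e-06), highest in tumour 1. Tgfb1 (chr7:26472021-26490015), the isoform best known from platelets and immune cells, was at 0.611, 1.06 and 1.56 FPKM, on 34, 57 and 93 fragments, and was not separated from 1 FPKM (limma, adjusted p = 0.97). Of the summed FPKM of the 3 ligand genes Tgfb3 held 86.1%, 91.9% and 94.2%, Tgfb2 held 13.4%, 7.20% and 4.68%, and Tgfb1 held 0.547%, 0.945% and 1.14%. Tgfb1 was the lowest of the 3 in every tumour, with a difference of -6.61 ± 0.42 log2 units (SD, n = 3) from Tgfb3 and of -3.06 ± 1.23 from Tgfb2.

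The order within tumours was thus the same in all 3, but Tgfb2 and Tgfb1 moved in opposite directions between them. Tgfb2 in tumour 1 was 2.32 times its level in tumour 3 (Cochran's Q, adjusted p = 6.5e-101), and Tgfb1 in tumour 3 was 2.55 times its level in tumour 1 (Q, adjusted p = 4.5e-06). With GC and length trends removed, Tgfb2 kept a ratio of 2.07 (14.4, 7.82 and 6.96 FPKM), while the ratio of Tgfb1 was 1.54 with an adjusted p of 0.077. Summed macrophage markers had the same order as Tgfb1, at 246, 443 and 909 FPKM; their part in it was not tested. Leaving out tumour 1 took the ratios to 1.26 for Tgfb2 and 1.46 for Tgfb1, and leaving out tumour 3 took that of Tgfb2 to 1.84.

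Latent TGF-beta is held in the matrix by the latent TGF-beta binding proteins, and 3 of the 4 Ltbp genes were above 1 FPKM. Ltbp3 was at 8.50, 14.3 and 13.7 FPKM (12.2 ± 3.20, SD, n = 3) and Ltbp2, a family member that does not bind latent TGF-beta covalently, at 7.44, 8.22 and 14.3 FPKM (9.98 ± 3.75). These did not differ beyond their spread. Ltbp1 was lower, at 2.28, 4.40 and 3.36 FPKM (3.34 ± 1.06), and the difference of Ltbp3 from it was 1.85 ± 0.16 log2 units, with the same sign in all 3 tumours. Ltbp4 was below 1 FPKM, at 0.153, 0.173 and 0.337 FPKM (limma, adjusted p = 0.00032); after rescaling to a total of 1000000 FPKM it was not separated (adjusted p = 0.12). The locus of Ltbp2 overlaps that of D030025P21Rik by 694 bases, so some of their fragments may have been shared, since whether strand was used in quantification is not stated.

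The BMP ligand genes were low with the exception of Bmp7. None of the 10 was called above 1 FPKM and 9 were below. Bmp7 (chr2:172695189-172765794), known for its part in kidney and bone formation, was at 0.983, 2.04 and 1.20 FPKM, a mean of 1.41 ± 0.559 (SD, n = 3), not separated from 1 FPKM (limma, adjusted p = 0.24) but called above it after rescaling to a total of 1000000 FPKM (adjusted p = 0.00089). It held 81.0%, 74.0% and 68.3% of the summed FPKM of the 10 BMP ligand genes. Bmp6, Bmp8b, Bmp2, Bmp3, Bmp4, Bmp15, Bmp8a, Bmp5 and Bmp10 had means from 0.122 down to 0.00948 FPKM. Bmp4, a ligand of mesenchyme in many organs, was at 0.0569, 0 and 0.0708 FPKM, which is 3, 0 and 4 fragments. Bmp7 exceeded Bmp4 in all 3 tumours, by 3.38 ± 0.90 log2 units with a pseudocount of 0.1, 1.18 with 1 and 5.16 with 0.01, so that only the direction is fixed at this depth. The protease gene Bmp1, which also cleaves procollagens, was at 6.09, 10.2 and 10.0 FPKM (8.77 ± 2.31), above every BMP ligand gene.

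No GDF gene was above 1 FPKM either, with 9 of 10 below and Gdf2, an endothelial ligand also called BMP9, listed at 0. Gdf11, a close relative of myostatin, was the highest, at 0.401, 0.417 and 0.710 FPKM (0.509 ± 0.174, SD, n = 3; limma, adjusted p = 0.020 for a level below 1 FPKM). Its call was lost without tumour 1 (adjusted p = 0.090) or tumour 2 (adjusted p = 0.13), and after rescaling to a total of 1000000 FPKM its sign turned, at 0.45 log2 above. Gdf6, at 0.143, 0.477 and 0.209 FPKM, and Gdf3, at 0.107, 0.241 and 0.333 FPKM, came next. Neither Gdf11 and Gdf6 nor Gdf6 and Gdf3 differed beyond their spread. The call of Gdf6 below 1 FPKM was lost without tumour 3 (limma, adjusted p = 0.072), and rescaling left both Gdf6 and Gdf3 not separated (adjusted p = 0.30 and 0.14). Gdf10, Gdf5, Gdf1, Gdf15, Gdf9 and Gdf7 had means of at most 0.123 FPKM. Gdf15, a stress-induced cytokine, had no fragments in tumours 1 and 2, and 2 fragments (0.0719 FPKM) in tumour 3.

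Activins are dimers of the inhibin beta subunits, and here the beta B gene dominated. Inhbb (chr1:121312042-121318825) was at 20.9, 34.9 and 37.7 FPKM, a mean of 31.2 ± 9.02 (SD, n = 3; limma, adjusted p = 2.6e-07), the second highest ligand gene after Tgfb3. Inhba (chr13:16106308-16119044), the beta A gene, was at 1.08, 1.04 and 0.717 FPKM, not separated from 1 FPKM (limma, adjusted p = 0.76). The difference was 4.88 ± 0.69 log2 units, a fold of 29.4 on the pseudocount scale, positive in all 3 tumours. Inha, the alpha subunit needed for inhibins, was listed at 0.0539, 0 and 0 FPKM, and Inhbc and Inhbe, known from liver, at 0. Inhbb held 95.1%, 97.1% and 98.1% of the summed FPKM of the 4 beta subunit genes. Removing the GC and length trends left it at 28.1, 32.0 and 30.5 FPKM, so that the ratio of its highest to its lowest tumour went from 1.80 to 1.14, and the SD of the difference from Inhba from 0.69 to 0.25.

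Of the 7 type I receptor genes, 5 were above 1 FPKM and 2 below. Acvr1b, the main activin type I receptor, was at 7.25, 9.19 and 11.4 FPKM (9.28 ± 2.08, SD, n = 3). Bmpr1a (chr14:35224254-35315732), a BMP receptor, was at 11.3, 5.70 and 3.00 FPKM (6.65 ± 4.22), and Tgfbr1, the TGF-beta type I receptor, at 7.80, 4.70 and 4.82 FPKM (5.77 ± 1.75). As deposited both were highest in tumour 1; with GC and length trends removed Bmpr1a still was, but Tgfbr1 was lowest there, at 4.88, 5.07 and 7.11 FPKM. Acvrl1, the endothelial receptor of Gdf2, was at 1.66, 3.58 and 3.49 FPKM (2.91 ± 1.09), and Acvr1, also a BMP receptor, at 1.87, 2.08 and 2.44 FPKM (2.13 ± 0.286). As deposited, none of these 5 differed from its neighbour in the order beyond the spread over tumours. With the trends removed 3 of the 4 neighbouring pairs did, each in 3 of 3 tumours. Acvr1b exceeded Bmpr1a by 0.65 ± 0.41 log2 units, Tgfbr1 exceeded Acvrl1 by 1.00 ± 0.36 and Acvrl1 exceeded Acvr1 by 0.36 ± 0.33. Bmpr1b (chr3:141500100-141645215) and Acvr1c were far lower, at 0.132, 0.0481 and 0.0247 FPKM and at 0.0289, 0.0223 and 0.0685 FPKM. Bmpr1a exceeded Bmpr1b by 5.18 ± 0.50 log2 units and Acvr1b exceeded Acvr1c by 6.06 ± 0.21, each in all 3 tumours. With a pseudocount of 1 these differences were 2.69 and 3.29, and with 0.01 they were 6.45 and 7.63.

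Type II receptor genes were led by Tgfbr2, at 18.5, 24.9 and 29.4 FPKM (24.3 ± 5.46, SD, n = 3), and Bmpr2, at 22.2, 19.9 and 18.3 FPKM (20.2 ± 1.98), which did not differ beyond their spread. Acvr2a, a receptor of activins and some BMPs, was lower at 6.17, 2.06 and 2.03 FPKM (3.42 ± 2.38). Its locus overlaps that of Orc4, an origin recognition gene at 18.8, 6.37 and 5.14 FPKM, by 511 bases; the part of shared fragments in its level was not tested. Acvr2b was at 0.476, 0.731 and 0.825 FPKM and not separated from 1 FPKM (limma, adjusted p = 0.12). With the trends removed it was below (adjusted p = 0.034), and after rescaling to a total of 1000000 FPKM above (adjusted p = 0.027). Tgfbr2, the ligand-binding receptor, exceeded its partner Tgfbr1 by 2.07 ± 0.73 log2 units, a fold of 4.19, in all 3 tumours. The difference ran from 1.24 in tumour 1 to 2.58 in tumour 3, and with GC and length trends removed its SD was 0.16. Its mean stayed at 2.07, but the removal hardly moves such a mean by construction, so this is no check of it.

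Co-receptors present ligand or modify its binding. Tgfbr3, betaglycan, which presents Tgfb2 protein in particular, was at 9.88, 11.7 and 8.93 FPKM (10.2 ± 1.39, SD, n = 3), below Tgfbr2 by a difference of 1.23 ± 0.42 log2 units. Bambi, a receptor-like decoy without a kinase, was at 3.17, 4.48 and 5.46 FPKM (4.37 ± 1.15). Its processed copy Bambi-ps1 was listed at 0.168, 0.384 and 0.438 FPKM, and reads could be split between them. Eng, endoglin, an endothelial co-receptor, was at 1.04, 1.73 and 2.00 FPKM and not separated from 1 FPKM (limma, adjusted p = 0.092). It was above without tumour 1 (adjusted p = 0.024) and with the trends removed (adjusted p = 0.016). Eng and Acvrl1 were both lowest in tumour 1, where the summed endothelial markers were also lowest, at 15.995 FPKM against 23.9 and 22.0. Of these markers Tek was highest in tumour 1 (1.17, 0.690 and 0.655 FPKM) and Emcn lowest in tumour 3 (2.42, 3.82 and 1.43). All others on the list were lowest in tumour 1. The part of endothelial cells was not tested.

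Several receptor calls depended on single tumours. Without tumour 2 the calls of Bmpr1a, Acvrl1, Acvr1 and Acvr2a above 1 FPKM were lost (limma, adjusted p from 0.062 to 0.10), and without tumour 3 those of Acvrl1 (0.086) and Acvr2a (0.078). All of these genes stayed above 1 FPKM in each tumour. Over all 60 genes, 29, 22 and 24 were called above without tumours 1, 2 and 3, against 27 with all 3. Over all 18028 symbols tested the counts were 9560, 7743 and 8811, against 9778 with all 3. Fewer calls without tumour 2 or tumour 3 were thus not particular to the pathway genes.

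Of the 8 Smad genes, 6 were above 1 FPKM. Smad4, the common partner, was the highest, at 15.96, 20.6 and 15.6 FPKM (17.4 ± 2.80, SD, n = 3). The TGF-beta and activin branch had Smad3 at 8.22, 13.5 and 13.2 FPKM (11.6 ± 2.97) and Smad2 at 13.8, 10.0 and 8.89 FPKM (10.9 ± 2.59). Smad2 was above Smad3 in tumour 1 and below it in tumours 2 and 3, a mean difference of -0.08 ± 0.72 log2 units, so no order between them was shown. The SD of that difference was 0.21 with the GC and length trends removed. The BMP branch had Smad5 at 6.44, 6.63 and 6.64 FPKM (6.57 ± 0.111) and Smad1 at 3.54, 5.02 and 4.87 FPKM (4.48 ± 0.816), with Smad5 higher in all 3 tumours by 0.56 ± 0.25. Smad9, the other BMP-regulated Smad, was at 0.0197, 0.0137 and 0 FPKM, or 3, 2 and 0 fragments. Smad5 was the steadiest of the Smads as deposited (highest over lowest tumour 1.03; Q, adjusted p = 0.71), but with the trends removed its values were 5.24, 6.69 and 8.21 FPKM.

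Inhibitory Smads compete with the receptor-regulated ones and are themselves induced by the pathway. Smad7, which blocks both branches, was at 5.35, 8.996 and 6.63 FPKM (6.99 ± 1.85, SD, n = 3). Smad6, which mainly blocks the BMP branch, was at 1.104, 1.70 and 1.79 FPKM (1.53 ± 0.370) and not separated from 1 FPKM (limma, adjusted p = 0.097), though above it without tumour 1 (adjusted p = 0.027), with the trends removed (0.020) and under each of the 3 other scalings. Smad7 exceeded Smad6 by 2.12 ± 0.26 log2 units, a fold of 4.34, in all 3 tumours.

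Extracellular antagonists among the chosen genes were low. Fst, follistatin, which captures activins, was at 0.669, 1.06 and 0.965 FPKM (0.898 ± 0.204, SD, n = 3; limma, adjusted p = 0.60) and below Inhbb by a difference of -4.95 ± 0.19 log2 units. The BMP antagonist genes Grem1, Chrd and Nog had means of 0.0887, 0.0586 and 0.0269 FPKM and were below 1 FPKM. Their highest single values were 0.197 FPKM for Grem1 in tumour 2, 0.103 for Chrd in tumour 3 and 0.0411 for Nog in tumour 2.

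The Id proteins bind basic helix-loop-helix factors and keep them off DNA, and all 4 Id genes were above 1 FPKM. Id2 (chr12:25778664-25780957), needed for alveolar growth of the mammary gland, was at 67.5, 72.7 and 97.3 FPKM (79.2 ± 15.9, SD, n = 3; limma, adjusted p = 1.1e-07), above 97.6% of all symbols. It held 87.6%, 82.2% and 91.2% of the summed FPKM of the 4 genes. Id4 was at 5.18, 7.002 and 2.76 FPKM (4.98 ± 2.13), Id1 at 2.64, 3.94 and 3.31 FPKM (3.30 ± 0.650) and Id3 at 1.77, 4.75 and 3.34 FPKM (3.29 ± 1.49). As deposited, neither Id4 and Id1 nor Id1 and Id3 differed beyond their spread; with the trends removed Id4 exceeded Id1 by 0.50 ± 0.47 log2 units, in 3 of 3 tumours. In every tumour Id2 exceeded Id4, by 4.04 ± 0.92 log2 units. Id1 and Id3, usually the most direct BMP targets, rested on 55, 79 and 74 and on 39, 101 and 79 fragments; their difference was 0.09 ± 0.42. The call of Id3 above 1 FPKM was lost without tumour 2 (adjusted p = 0.083) or tumour 3 (adjusted p = 0.092).

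**Figure D3:**
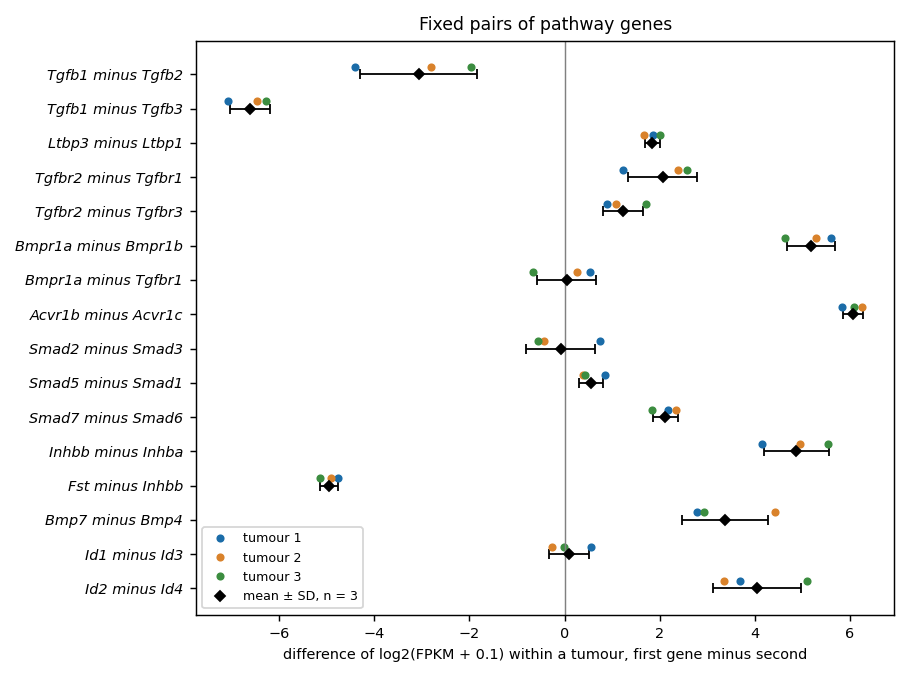
Difference of log2(FPKM + 0.1) between the members of 16 fixed gene pairs, with 1 point per tumour and the mean ± SD over 3 tumours. In 13 pairs all tumours lie on the same side of 0, and the points of Bmpr1a and Tgfbr1, Smad2 and Smad3, and Id1 and Id3 lie on both sides.

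For the 16 fixed pairs, signs were flipped over the 3 tumours in an exact two-sided permutation test, which cannot give a p below 0.25. It gave 0.25 for the 13 pairs with 1 sign in all tumours (0.31 after Benjamini-Hochberg adjustment over the pairs). No pair could therefore pass a threshold, and the size, the SD and the number of tumours with the sign are what the data offer. For the other 3 pairs p was 1. Bmpr1a and Tgfbr1 differed by 0.04 ± 0.63 log2 units, with Bmpr1a higher in tumours 1 and 2.

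Differences between tumours were tested over 11193 symbols averaging 1 FPKM or more, by Cochran's Q on the deposited intervals and a ratio of at least 2 between the highest and lowest tumour. This compares 3 libraries and covers counting error only. Of the 31 pathway genes tested, 8 differed, or 25.8%, against 32.1% of all symbols. Tgfb2, Bmpr1a and Acvr2a were highest in tumour 1, Bmp7, Acvrl1, Id3 and Id4 in tumour 2, and Tgfb1 in tumour 3. The widest was Bmpr1a, 3.76 times higher in tumour 1 than in tumour 3 (Q, adjusted p = 3.2e-168), followed by Acvr2a with 3.05, Id3 with 2.69, Tgfb1 with 2.55 and Id4 with 2.53. Leaving out tumours 1, 2 and 3 left 1, 5 and 4 genes; without tumour 1 the gene that still passed was Id4. With totals taken without loci under 300 bp, or with median-of-ratios scaling, Tgfb1, Bmp7 and Acvrl1 had ratios under 2 (from 1.69 to 1.98), while Smad2 and Tgfbr1 passed it (from 2.01 to 2.11).

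Between tumours 1 and 3, the differences of the tested pathway genes ran with the GC content of the transcripts. All 17 tested pathway genes with a transcript GC of 50% or more were higher in tumour 3 than in tumour 1, by a median of 0.68 log2 units and between 0.27 and 1.22. Among the 14 with less GC, 5 were higher in tumour 3, with a median of -0.21 and a range from -1.88 for Bmpr1a to 0.77 for Bambi. The same held over all symbols: 4855 of 5253 GC-rich symbols were higher in tumour 3 (median 0.73), and 2205 of 5801 GC-poor ones (median -0.33). Across the 31 genes, which are not independent replicates and share the same libraries, Spearman's rho between GC content and the difference was 0.71, and -0.10 after the trends were removed. The second value is near 0 largely by construction, because the GC trend had been subtracted.

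**Figure D4:**
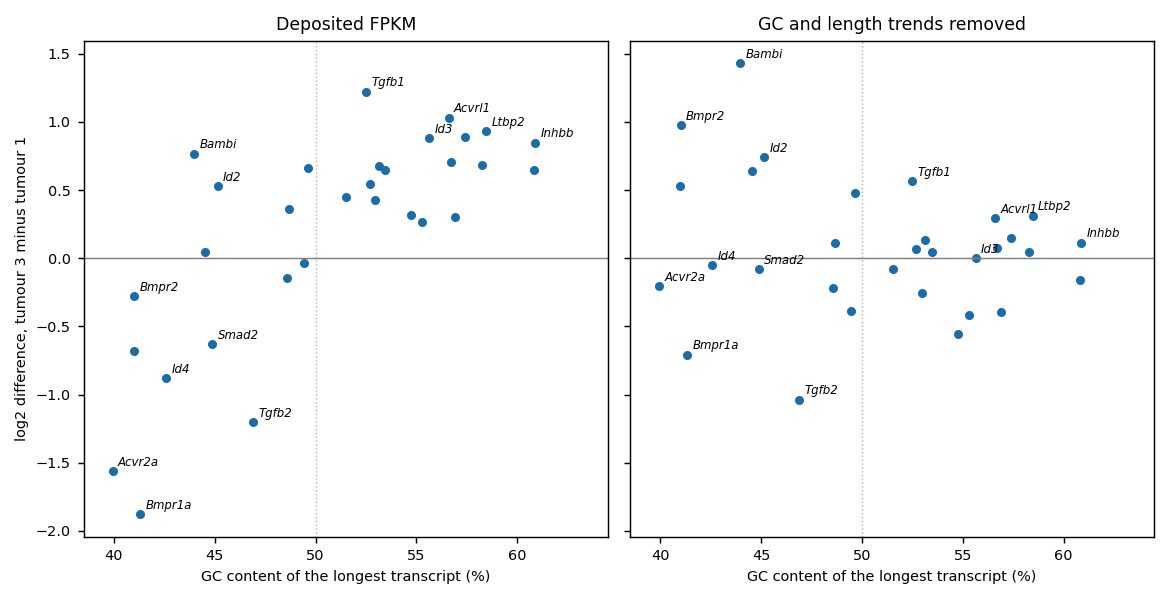
Log2 ratio of tumour 3 to tumour 1 for 31 pathway genes averaging 1 FPKM or more against the GC content of the longest transcript in percent, as deposited and with GC and length trends removed. As deposited, the 17 genes of 50% GC or more are all above 0 and Bmpr1a and Acvr2a are lowest; after removal 11 of the 17 are above 0 and Bambi is highest.

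With GC and length trends removed, 2 of the 31 pathway genes differed between tumours, Tgfb2 and Bambi, beside 16.9% of 11146 symbols. Tgfb2 is the gene whose difference was found both ways. Bambi was at 2.52, 4.47 and 6.96 FPKM, a ratio of 2.76 (Q, adjusted p = 7.6e-65), where the deposited values gave 1.73. The ratio of Bmpr1a became 1.65 (7.20, 6.11 and 4.37 FPKM), that of Acvr2a 1.57, Acvrl1 1.46, Id3 1.70, Id4 1.92 and Bmp7 1.94. Bmpr2 moved the other way, from the narrow 22.2, 19.9 and 18.3 FPKM to 13.4, 23.2 and 26.4, a ratio of 1.97. Its removal used the longest transcript, of 12899 bases. In tumour 1, however, its 2164 fragments at 22.2 FPKM were a rate near that of Tgfb3, of 3383 bases, with 9006 at 96.1. The widened ratio of Bmpr2 may therefore come from a transcript other than the one quantified, which was not tested. The removal takes out any difference that runs with GC content, whatever its source.

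Beyond the chosen genes, 7 lists of other pathway components, chosen for their known roles, were read in the same tests. Of all symbols tested, 54.2% were above 1 FPKM and 32.5% below. Of 17 genes that activate or hold latent TGF-beta, 11 were above 1 FPKM, none was below and 6 were not separated (median log2 level 3.02, beside 1.09 for all symbols). Of these 6, Lrrc33 and Emilin1 were above with GC and length trends removed. The highest were the integrin subunit Itgb1 at 112.9, 82.9 and 40.7 FPKM, Thbs1, a matrix protein that can activate latent TGF-beta, at 35.7, 63.9 and 31.5, and Itgb5 at 20.6, 46.2 and 47.4. Among 19 intracellular regulators 17 were above and 2 not separated, Tgif2 and Zfyve9 (median 2.74). With the trends removed Tgif2 was above too. Pmepa1, a TGF-beta-induced inhibitor, was at 30.3, 42.1 and 52.2 FPKM, Ppm1a, a Smad phosphatase, at 27.4, 30.5 and 29.9, and Skil, a Smad co-repressor, at 33.7, 22.1 and 15.9. Of 18 other extracellular antagonists and modulators, 5 were above, 3 below, 8 not separated and 2 at 0 (median 0.41), led by the proteoglycan Bgn at 31.8, 70.4 and 60.8 FPKM, Fstl1 at 23.8, 33.3 and 32.1 and the proteoglycan Dcn at 17.2, 10.0 and 10.8. Bmper, Chrdl2 and Sostdc1 were below and Sost and Cer1 at 0.

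Of 6 other co-receptors, Neo1 (8.88, 9.98 and 7.95 FPKM) and Rgma (1.91, 1.87 and 2.55) were above, Rgmb (1.08, 1.1 and 1.60) was not separated, Tdgf1 was below, and Hfe2 and Cfc1 were listed at 0. The 6 remaining family ligands and their receptor held none above 1 FPKM: Nodal, Lefty1, Amhr2, Mstn and Amh were below, the highest being Nodal at 0.0539, 0.0373 and 0.0670 FPKM, and Lefty2 was listed at 0.

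Response genes of the branches were read as 2 lists, which share Smad7. Beside them, 54.2% of all symbols tested were above 1 FPKM and 32.5% below, with a median log2 level of 1.09. Of 18 TGF-beta and activin response genes, which include Ltbp2 and Smad7, 15 were above 1 FPKM and 3, the transcription factor genes Snai1 and Snai2 and the chromatin protein gene Hmga2, were below (median 3.61). The highest were the matrix protein Postn at 88.6, 51.1 and 27.1 FPKM, Igfbp3 at 29.3, 80.4 and 45.3 and the collagen gene Col1a1 at 32.3, 54.6 and 43.4. Fibroblast markers, among them Col1a1 itself, summed to 178, 301 and 267 FPKM; their part in these levels was not tested. Of 13 BMP response genes outside the Id family, which include 6 of the chosen genes, 3 were above, Hey1, Smad7 and Bambi, 8 were below and 2, Smad6 and Msx2, were not separated (median -1.57). Hey1, which is also a Notch target, was at 65.2, 75.7 and 111.3 FPKM. A level in 1 group without a control says nothing of whether the pathway was active, and the difference between the lists was not tested.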

How the data were processed

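Total RNA of 3 tumours was depleted of ribosomal RNA, and directional libraries were primed with random hexamers from 50 ng, per the labels' protocols; the extraction kit was one made for fixed tissue. Per the file headers, the authors deposited a gene-level FPKM with interval bounds and a status flag. TopHat, Cufflinks and build mm9 are named without roles in the submitters' processing notes; versions, annotation and use of strand are not stated. Tumours were numbered in accession order. Other numbers in the titles have no stated meaning, so library or lane batches cannot be told apart from tumours.

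Each file held 22310 rows, which gave 21881 symbols once rows of 221 repeated symbols were added up; 182 symbols with another status than OK were left out, none of them a pathway gene. FPKM totals were 318509, 375968 and 364195, of which 36.7%, 31.7% and 28.6% lay in loci under 300 bp. Interval bounds were taken to lie 2 standard errors from the value. The fragments this implies were whole (to within 0.02) in 70.5%, 71.4% and 69.3% of low rows, too few for a count test. The level test used limma 3.58.1 (R 4.3.3): values of log2((FPKM + 0.1)/(1 + 0.1)), an intercept-only model with trend and robust moderation, adjusted by Benjamini-Hochberg over 18028 symbols and called under 0.05; a fold on this scale understates that of low genes. P-values measure the spread between tumours of 1 line in different mice. Differences between tumours used Cochran's Q (2 degrees of freedom) and a ratio of at least 2. Neighbours in an order were said to differ where the mean log2 difference exceeded its SD.

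Transcript GC and length were taken from GENCODE vM21 by gene name (98.2% of symbols, 63 of 63 pathway genes), and lowess (span 0.3) was used to take out their trends. The longest transcript of each gene was used, which need not be the one behind the deposited value. Promoters are from RefSeq. On simulated data the level test called 50 of 50 genes at log2 2, 43 of 50 at log2 1 and 81 of 2000 at 0, among 15210 simulated; the Q test called 50 of 50 at 2.5-fold and 3 of 10858 unchanged. Alternatives were other pseudocounts, filters, scalings and moderation, each tumour left out, and the trend removal.

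The pathway genes and lists were chosen with earlier results of these data known. Each pathway gene is accounted for; of each other list the 3 highest are named, and those behind small counts were named after their values were seen.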

Additional observations from a re-analysis of the deposited data

How the results depend on the processing

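No paired analysis was possible because the tumours form 1 group. For the 35 pathway genes averaging 0.5 FPKM or more, 395 of 420 alternative levels kept their direction and call, 11 gained and 10 lost a call, and 4 reversed, all under rescaling to a total of 1000000 FPKM (log2 levels Gdf11 0.45, Inhba 1.32, Acvr2b 0.84, Fst 1.24). Among the 25 lower genes tested, calls were lost by Gdf6 without tumour 3 and by Gdf6, Gdf3 and Ltbp4 under that rescaling. With symbols under 0.5 FPKM left out, 1 pathway gene of 35 tested was below 1 FPKM instead of 26 of 60, because fewer genes were tested; the 27 above were unchanged in number. The 8 genes that differed between tumours became 22 with a ratio of at least 1.5 and 2 with GC and length trends removed, and between 1 and 5 with a tumour left out. Of 96 alternative pair differences 80 stayed within 1 SD with their sign. Those with a tumour left out could not leave that range by construction, so for them only a turned sign counts. The 16 with GC and length trends removed could hardly move, because the removal leaves a gene's mean log2 level nearly unchanged by construction. With a pseudocount of 1, by construction, differences shrank: Tgfb1 minus Tgfb3 to -5.75, Ltbp3 minus Ltbp1 to 1.60, Bmpr1a minus Bmpr1b to 2.69, Acvr1b minus Acvr1c to 3.29, Smad7 minus Smad6 to 1.65, Inhbb minus Inhba to 4.01, Fst minus Inhbb to -4.05 and Bmp7 minus Bmp4 to 1.18. With 0.01 Bmpr1a minus Bmpr1b was 6.45, Acvr1b minus Acvr1c 7.63 and Bmp7 minus Bmp4 5.16. Signs turned with a tumour left out for Bmpr1a minus Tgfbr1 (-0.20 without tumour 1, -0.07 without tumour 2, range -0.20 to 0.40), Smad2 minus Smad3 (0.09 without tumour 2, 0.16 without tumour 3, range -0.49 to 0.16) and Id1 minus Id3 (-0.14 without tumour 1, range -0.14 to 0.27), pairs with mixed signs to begin with. All 24 alternative family shares moved by less than 1 SD, but leaving out 1 of 3 tumours cannot move a mean that far. The 6 shares with GC and length trends removed could hardly move either, because the trends were fitted to differences from the mean of the 3 tumours. Genes of a few fragments, such as most BMP and GDF genes, are limited by depth.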

Other observations

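Some pathway genes far below 1 FPKM had most of their few implied fragments in 1 tumour. Bmp2, an osteogenic ligand, was listed with 1, 13 and 2 fragments in tumours 1, 2 and 3 (0.0147, 0.198 and 0.0274 FPKM). Bmp3, a BMP relative that opposes the other ligands, had 2, 2 and 16 fragments (0.0233, 0.0243 and 0.174 FPKM). Acvr1c, a type I receptor known from fat tissue, had 5, 3 and 16 fragments, and the summed adipocyte markers were likewise highest in tumour 3, at 209 FPKM against 67.4 and 48.2. Gdf10, a BMP relative also made by fat tissue, had 6, 3 and 17 fragments, and Gdf5 had 5, 1 and 14. Bmpr1b ran the other way, with 20, 7 and 4 fragments. The part of other cells in these values was not tested, these genes were picked with their values in view, and all lie under the level at which differences between tumours were tested.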
